A study of Mus musculus with 16 samples.

Results

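Follicular and marginal zone B cells, the main mature B cells of the spleen, carry surface receptors that set them apart from plasma cells and from each other. Values of 9 genes of this kind (Cr2, Fcer2a, Fcmr, Fcrla, Cd1d1, S1pr1, S1pr3, Notch2 and Dtx1) were taken from Affymetrix mouse arrays of the Eμ-xbp-1s model of multiple myeloma (MM), out of 18193 genes that could be named there. Every probe set that the platform annotation gives to one of these genes alone was used, 17 in all. The arrays hold 3 groups: 6 samples of Eμ-xbp-1s MM, B220+ splenic B cells of 5 Eμ-xbp-1s mice, and B220+ splenic B cells of 5 wild-type (nontransgenic) mice. The transgene carries the spliced form of mouse xbp-1 under an immunoglobulin VH promoter and the Eμ enhancer, elements that act throughout B cell development and in some T cells, so that MM and Eμ-xbp-1s B cells share it and wild-type B cells lack it. The mice were made on C57BL/6, and the B cells came from mice of 20 weeks and were taken with magnetic beads against B220. Total RNA of the MM samples came from tumors, with no sort of cells named. The age of the mice with MM and the founder line behind each array are not given in the sources used here, and no source tells whether each of the 6 MM samples is from a different mouse. The p-values for MM therefore reflect variation among samples that may be partly or wholly technical. The set was chosen by measured values in part, with earlier results of these arrays known. Among them were low values of Cr2, Fcer2a, Fcmr and Fcrla in MM relative to Eμ-xbp-1s B cells, and low values of Cd1d1 in Eμ-xbp-1s relative to wild-type B cells. The comparisons of the first 4 genes with MM, and all 3 comparisons of Cd1d1, each of which shares arrays with that earlier result, are therefore given as a description with no p. The p-values of the first 4 in Eμ-xbp-1s against wild-type B cells also share the Eμ-xbp-1s arrays with the earlier result and are not independent of the choice.

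Follicular B cells recirculate through blood and lymphoid follicles, whereas marginal zone B cells stay beside the splenic blood sinus and respond fast to blood-borne antigen. Notch2 signalling, through the DNA-binding factor RBPJ, is needed for the marginal zone fate, and gradients of the lipid sphingosine-1-phosphate, read by S1P receptors, hold marginal zone B cells in place and let lymphocytes leave tissues. When a B cell becomes a plasma cell, much of the mature B cell program, including many surface receptors, is switched off.

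Promoters are shown for the 4 genes that differed most between MM and wild-type B cells (Cr2, Fcmr, Fcrla and Fcer2a). RefSeq promoter sequence (GRCm38.p6, from 250 bases before to 50 after a transcription start) was found for 7 of the 9 genes, Cd1d1 and S1pr1 being the others. Each was searched on both strands for CAGGTG (reverse complement CACCTG), an E-box bound by E2A-type factors that drive B cell genes, and for TGGGAA (reverse complement TTCCCA), the core letters bound by RBPJ. The runs below read 5′ to 3′ on the strand of the gene, with matches to either motif in capitals.
Cr2, chr1:195176670-195176969, minus strand: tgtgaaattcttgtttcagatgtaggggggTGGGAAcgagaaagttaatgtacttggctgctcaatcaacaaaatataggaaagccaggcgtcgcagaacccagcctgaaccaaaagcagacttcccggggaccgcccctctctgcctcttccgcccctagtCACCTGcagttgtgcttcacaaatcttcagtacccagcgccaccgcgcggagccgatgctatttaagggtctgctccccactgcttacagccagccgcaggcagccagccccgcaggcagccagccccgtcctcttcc
Fcmr, chr1:130865527-130865826, plus strand: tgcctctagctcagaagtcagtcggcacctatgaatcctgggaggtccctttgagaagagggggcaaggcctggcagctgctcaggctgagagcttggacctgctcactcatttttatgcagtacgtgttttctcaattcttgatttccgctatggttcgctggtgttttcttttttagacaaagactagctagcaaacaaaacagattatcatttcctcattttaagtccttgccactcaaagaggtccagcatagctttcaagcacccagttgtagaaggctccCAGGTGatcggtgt
Fcrla, chr1:170927534-170927833, minus strand: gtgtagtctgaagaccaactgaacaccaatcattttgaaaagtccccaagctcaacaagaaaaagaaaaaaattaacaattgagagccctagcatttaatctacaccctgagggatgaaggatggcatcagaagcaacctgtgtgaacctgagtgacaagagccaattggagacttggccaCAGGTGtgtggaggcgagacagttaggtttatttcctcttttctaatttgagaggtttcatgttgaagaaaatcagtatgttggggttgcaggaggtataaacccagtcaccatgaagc
Fcer2a, the second of 3 starts, chr8:3690812-3691111, minus strand: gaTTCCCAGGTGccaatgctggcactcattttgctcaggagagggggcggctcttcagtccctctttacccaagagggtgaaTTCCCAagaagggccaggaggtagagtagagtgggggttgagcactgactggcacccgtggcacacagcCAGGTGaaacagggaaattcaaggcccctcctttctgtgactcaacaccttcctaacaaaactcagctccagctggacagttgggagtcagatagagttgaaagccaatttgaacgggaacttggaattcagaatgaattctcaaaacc
The E-box stood in the promoters of 4 of the 7 genes, the 4 shown, at −88 bases from the start in Cr2, +36 in Fcmr, −69 in Fcrla and −244 and −99 at the second start of Fcer2a. It is in 20.2% of 32851 mouse promoters of this length, and in at least one promoter of 22.6% of genes. The RBPJ letters were matched in 3 of the 7 genes: Cr2 at −220, Fcer2a at 2 of its 3 starts, and S1pr3 at +13. These letters are in 25.6% of all promoters and of 28.3% of genes. At the second start of Fcer2a a match to each motif overlap in the run TTCCCAGGTG. A match is a description of letters in these windows and no evidence of binding.

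All values are intensities on a linear scale, and a gene is given by its brightest probe set, that with the highest mean over the 16 arrays, unless another is named. The 9 genes lie on 5 chromosomes (GRCm38.p6). Chromosome 1 holds 3 of them, at chr1:130865777-130880790 (Fcmr), chr1:170917594-170932216 (Fcrla) and chr1:195136811-195176880 (Cr2). Chromosome 3 holds Cd1d1 (chr3:86995834-87012358), Notch2 (chr3:98013538-98150367) and S1pr1 (chr3:115710433-115715055). Dtx1 is at chr5:120680203-120711867, Fcer2a at chr8:3680280-3694174 and S1pr3 at chr13:51408618-51422797.

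Array medians were at most 82.9 in MM, 73.5 in Eμ-xbp-1s B cells and 73.0 in wild-type B cells. Likeness between arrays varied within groups. MM arrays 1 to 3 resembled each other (Spearman's rho 0.957 to 0.968 across probe sets) more than they did arrays 4 to 6 (0.837 to 0.891). Arrays 4 to 6 were not a single set: arrays 4 and 5 were at 0.943 with each other, and array 6 at 0.850 to 0.861 with them. Eμ-xbp-1s B cell arrays 1 and 2 resembled each other (0.977) more than they did arrays 3 to 5 (0.890 to 0.936). Eμ-xbp-1s arrays 3 to 5 were not a close set, at 0.913 to 0.956 with each other. Wild-type arrays 1 and 2 (0.975) also stood apart from arrays 3 to 5 (0.951 to 0.960). Those wild-type arrays 3 to 5 were close, at 0.969 to 0.971 with each other. The labels name no batch. Pan-B genes (9 measured of 10, with Cd79a, Ms4a1 and Pax5 among them) summed to between 2124 and 19612 in MM, 17906 and 30478 in Eμ-xbp-1s B cells, and 35508 and 38362 in wild-type B cells. Summed plasma cell markers (8 of 8) lay between 3751 and 16258 in MM, 10254 and 15154 in Eμ-xbp-1s B cells, and 11233 and 12722 in wild-type B cells. Markers of other cells were present in MM and in Eμ-xbp-1s B cells: summed T cell markers (8 of 9) lay between 627 and 4241 in MM, 5363 and 6713 in Eμ-xbp-1s B cells, and 686 and 805 in wild-type B cells. Summed neutrophil markers (6 of 8) reached 54877 and 43198 in MM arrays 4 and 5 against 406 to 1314 in the other MM arrays, and lay between 8984 and 27191 in Eμ-xbp-1s B cells and 481 and 1282 in wild-type B cells. Erythroid markers (7 of 8) summed to 22012 and 30611 in the same MM arrays, against 1365 to 2291 in the others, and stroma markers (8 of 8) to between 5062 and 12357 in MM, 346 and 491 in Eμ-xbp-1s B cells, and 347 and 519 in wild-type B cells. The part of these cells in the results that follow was not tested. In samples of mixed cells, fewer cells of a type and less RNA per cell cannot be told apart.

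**Figure D1:**
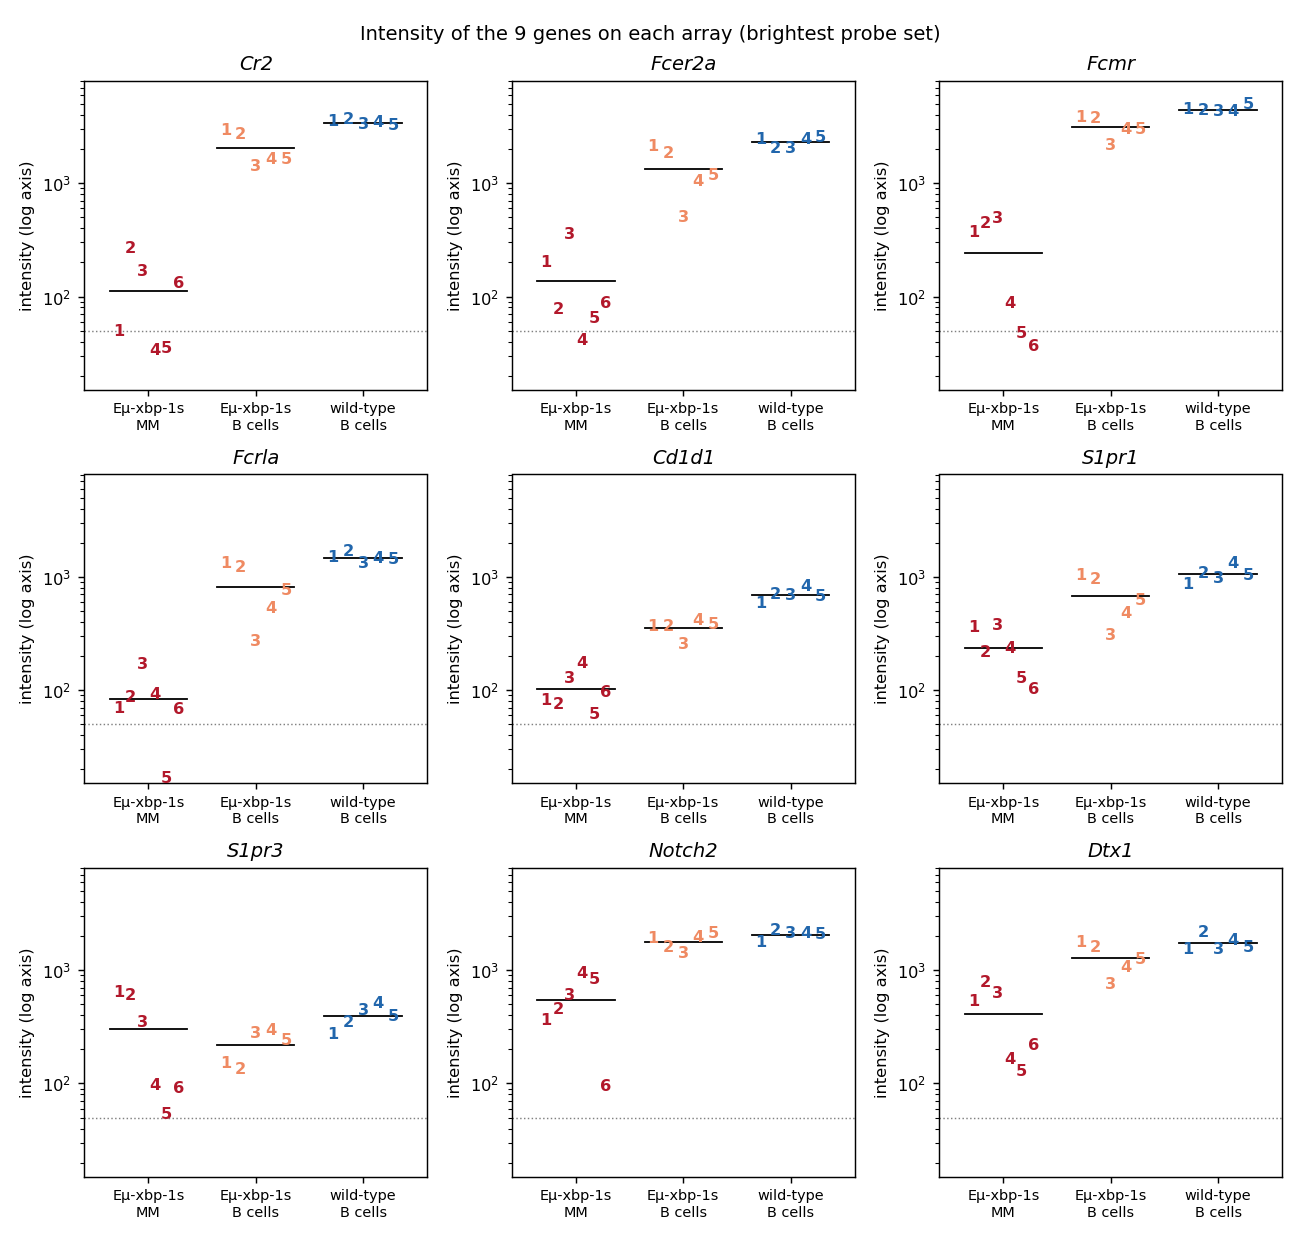
Intensity (log axis) of the brightest probe set of each gene on every array, with the array number as the symbol, the group mean as a line and the floor of 50 used in the tests as a dotted line. From Cr2 to Cd1d1 all 6 MM arrays lie below every B cell array of both genotypes, whereas the S1pr3 values of MM arrays 1 to 3 (344 to 632) lie above those of arrays 4 to 6 (53.2 to 96.7).

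Cr2, which encodes the complement receptors CD21 and CD35 by alternative splicing and marks marginal zone B cells most strongly, was at 49.4, 263, 167, 33.1, 34.6 and 129 in MM arrays 1 to 6. It was at 2925, 2694, 1398, 1631 and 1624 in Eμ-xbp-1s B cells and at 3509, 3696, 3332, 3457 and 3213 in wild-type B cells. The 3 groups did not overlap, MM being lowest and wild-type B cells highest. The log2 fold change was −4.38 (standard error 0.45) in MM relative to Eμ-xbp-1s B cells and −5.19 (0.42) in MM against wild-type B cells. Since 3 of the 6 MM values lie at or under the floor of 50, which takes their place in the fit, both changes understate the difference in the deposited values. Between Eμ-xbp-1s and wild-type B cells the log2 fold change was −0.81 (standard error 0.20, adjusted p = 0.0338 from limma), which did not pass the threshold of 0.01 used throughout. Without Eμ-xbp-1s array 1 it passed (−0.95, adjusted p = 0.00907 from limma). Without any other single array it did not, with adjusted p from 0.0195 to 0.0888 (limma). Follicular dendritic cells also carry CD21 and CD23, and their summed markers (6 of 6) lay between 1852 and 12636 in MM, 1081 and 1696 in Eμ-xbp-1s B cells, and 629 and 752 in wild-type B cells. Their part in the values of Cr2 and Fcer2a was not tested.

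Fcer2a encodes CD23, the low-affinity IgE receptor, which follicular B cells carry and marginal zone B cells largely lack. It was at 200.5, 77.4, 352, 41.1, 63.4 and 86.6 in MM, at 2098, 1849, 498, 1044 and 1168 in Eμ-xbp-1s B cells, and at 2455, 2023, 2047, 2437 and 2561 in wild-type B cells. Every MM array lay below every B cell array, and the Eμ-xbp-1s and wild-type ranges overlapped through Eμ-xbp-1s array 1. The log2 fold change was −3.47 (standard error 0.52) in MM relative to Eμ-xbp-1s B cells and −4.42 (0.43) in MM against wild-type B cells. Eμ-xbp-1s against wild-type B cells gave −0.95 (standard error 0.32, adjusted p = 0.112 from limma). The second probe set was dimmer and fell between 1 and 58.6 in MM, 30.6 and 585 in Eμ-xbp-1s B cells, and 427 and 800.2 in wild-type B cells. On it Eμ-xbp-1s arrays 3 and 4 (30.6 and 50.3) reached into the MM range, and its change in Eμ-xbp-1s B cells, −2.02, did not pass either (adjusted p = 0.0936 from limma).

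Fcmr, the Fc receptor for IgM, was at 368, 437, 487, 87.2, 46.8 and 36.4 in MM. Its values were 3809.6, 3730.5, 2163, 3015 and 3010.2 in Eμ-xbp-1s B cells and 4451, 4369, 4284, 4306 and 4945 in wild-type B cells. The 3 groups did not overlap, and within MM arrays 4 to 6 lay well below arrays 1 to 3. The log2 fold change was −4.26 (standard error 0.63) in MM relative to Eμ-xbp-1s B cells and −4.80 (0.62) against wild-type B cells. With MM arrays 4, 5 and 6 left out these became −2.85 and −3.38. Eμ-xbp-1s against wild-type B cells gave −0.53 (standard error 0.16, adjusted p = 0.068 from limma), short of the threshold although all 5 Eμ-xbp-1s arrays were below all 5 wild-type arrays.

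Fcrla encodes an Fc receptor-like protein that stays inside B cells. It was at 69.2, 85.6, 169, 90.9, 16.5 and 66.9 in MM, at 1302, 1212, 269.7, 519.8 and 757 in Eμ-xbp-1s B cells, and at 1474, 1657, 1297, 1441 and 1426 in wild-type B cells. MM lay below both groups of B cells on every array, and Eμ-xbp-1s array 1 alone reached the wild-type range. The log2 fold change was −3.09 (standard error 0.41) in MM against Eμ-xbp-1s B cells, −4.15 (0.26) in MM against wild-type B cells, and −1.06 (0.36, adjusted p = 0.116 from limma) in Eμ-xbp-1s against wild-type B cells. A second probe set, which may also detect related transcripts by its design, differed alike, with −3.06, −3.73 and −0.67 (adjusted p = 0.039 from limma for the last). The third was dim and less separated, between 56.0 and 152 in MM, 135 and 305 in Eμ-xbp-1s B cells, and 141 and 316 in wild-type B cells.

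Cd1d1 encodes CD1d, the MHC-like molecule that presents lipids to NKT cells and is highest on marginal zone B cells. It was at 81.2, 74.4, 125, 172, 60.9 and 95.4 in MM, at 364, 363, 255, 407 and 382 in Eμ-xbp-1s B cells, and at 584, 692, 685, 813 and 667 in wild-type B cells. No group overlapped another. The log2 fold change was −0.97 (standard error 0.15) in Eμ-xbp-1s against wild-type B cells and −1.87 (0.26) in MM against Eμ-xbp-1s B cells. In MM against wild-type B cells it was −2.84 (0.24), with means of 102 ± 41.0 (SD, n = 6) in MM and 688 ± 82.1 (SD, n = 5) in wild-type B cells. The other probe set separated the 3 groups in the same order, with 41.7 to 139 in MM, 271 to 362 in Eμ-xbp-1s B cells and 394 to 582 in wild-type B cells, and gave −2.51 in MM against wild-type B cells. The neighbouring copy Cd1d2 is nearly identical, and its transcripts cannot be told apart from those of Cd1d1 on the brighter probe set.

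S1pr1 is the receptor through which lymphocytes leave lymphoid tissues toward sphingosine-1-phosphate in blood and lymph. It was at 354, 216, 374, 234, 127 and 102 in MM, at 1024, 939.8, 305, 478 and 617 in Eμ-xbp-1s B cells, and at 862, 1071, 965, 1314 and 1022 in wild-type B cells. MM lay below every wild-type array and overlapped Eμ-xbp-1s B cells through their array 3, while Eμ-xbp-1s arrays 1 and 2 lay within the wild-type range. S1pr1 fell in MM relative to wild-type B cells (log2 fold change −2.30, standard error 0.32, adjusted p = 0.000509 from limma). The changes of −1.54 in MM relative to Eμ-xbp-1s B cells (standard error 0.40, adjusted p = 0.0298) and of −0.76 in Eμ-xbp-1s against wild-type B cells (0.29, adjusted p = 0.168) did not pass (limma). Endothelial cells express S1pr1 as well, and their summed markers (8 of 8) lay between 919 and 1908 in MM, 754 and 1077 in Eμ-xbp-1s B cells, and 814 and 1022 in wild-type B cells. Their part in the values of S1pr1 was not tested.

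S1pr3, another S1P receptor that marginal zone B cells express, was at 632, 595, 344, 96.7, 53.2 and 89.5 in MM, at 150.1, 132, 274, 296 and 241 in Eμ-xbp-1s B cells, and at 271, 345, 440.0, 508 and 392 in wild-type B cells. MM arrays 1 and 2 lay above every B cell array and MM arrays 4 to 6 below every B cell array, so that MM spanned both other groups. Its log2 fold change was −0.07 in MM relative to Eμ-xbp-1s B cells (standard error 0.63, adjusted p = 0.956) and −0.95 in MM against wild-type B cells (0.62, adjusted p = 0.296), neither past the threshold (limma). With MM arrays 4, 5 and 6 left out, a choice made after seeing the data, both changes turned positive, 1.28 (adjusted p = 0.0247) relative to Eμ-xbp-1s B cells and 0.40 (adjusted p = 0.238) against wild-type B cells, still short of it (limma). The summed NK cell markers (7 of 8) were 6840, 6402 and 3621 in MM arrays 1 to 3 against 1433 to 1843 in arrays 4 to 6, and the summed follicular dendritic cell markers (6 of 6) 11600, 12636 and 10691 against 1852 to 3098. Summed T cell markers (3097 to 4241 against 627 to 1077) and pan-B genes (19110 to 19612 against 2124 to 9833) split the same way. Endothelial (1189 to 1612 against 919 to 1908) and stroma markers (9425 to 12357 against 5062 to 10112) overlapped between these arrays. The part of any of these cells in the values of S1pr3 was not tested.

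In Eμ-xbp-1s against wild-type B cells the brightest probe set of S1pr3 gave −0.88 (standard error 0.25, adjusted p = 0.0581 from limma). The fit that pairs arrays of the same number gave −0.88 (0.14) with an adjusted p of 0.0053 from limma, past the threshold. That pairing was taken from the array values themselves and is stated by no source. For no number were the Eμ-xbp-1s and wild-type arrays each other's closest match, so little rests on the paired result. On a second probe set the Eμ-xbp-1s arrays were at 161, 119, 94.2, 90.6 and 134, all below the wild-type arrays at 179, 205, 316, 333 and 253. It fell in Eμ-xbp-1s B cells (log2 fold change −1.09, standard error 0.21, adjusted p = 0.00875 from limma). The third probe set lay under 100 on all B cell arrays and was not tested in this comparison, with 34.0 to 76.4 in Eμ-xbp-1s and 76.6 to 98.1 in wild-type B cells. All 3 probe sets were higher in MM arrays 1 to 3 than in MM arrays 4 to 6.

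**Figure D2:**
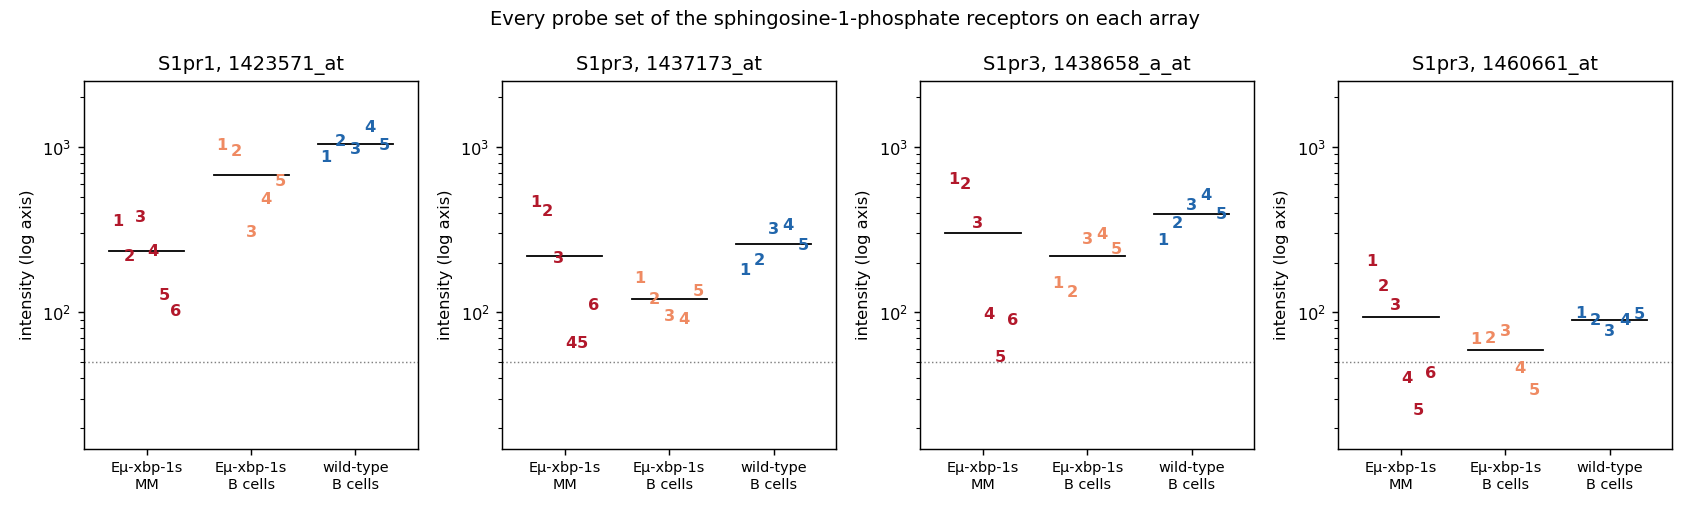
Intensity (log axis) of every probe set of S1pr1 and S1pr3 on each array, with the array number as the symbol, the group mean as a line and the floor of 50 as a dotted line. On all 3 probe sets of S1pr3 the MM arrays 1 to 3 lie above MM arrays 4 to 6, and on the second brightest of them all 5 Eμ-xbp-1s B cell arrays (90.6 to 161) lie below all 5 wild-type arrays (179 to 333).

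Notch2 encodes the receptor that directs B cells to the marginal zone. It was at 358, 454, 600.4, 929, 823 and 94.5 in MM, at 1912, 1578, 1406, 1947 and 2099.9 in Eμ-xbp-1s B cells, and at 1742, 2243, 2115, 2126 and 2070.0 in wild-type B cells. MM lay below all B cell arrays, with array 6 far below the others, and the B cell groups overlapped. Notch2 fell in MM relative to wild-type B cells (log2 fold change −2.23, standard error 0.48, adjusted p = 0.00666 from limma). It no longer passed without any one wild-type array, or without MM array 1 or 2, with adjusted p between 0.0124 and 0.0198. The change of −2.01 in MM against Eμ-xbp-1s B cells did not pass (0.48, adjusted p = 0.0209) but passed without MM array 6 (−1.57, adjusted p = 0.00374, both from limma). Between Eμ-xbp-1s and wild-type B cells the difference was −0.21 (standard error 0.14, adjusted p = 0.446 from limma), the smallest of the 9 genes. A second probe set of Notch2 lay under 100 on all arrays and was not tested.

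Dtx1 encodes Deltex1, a ubiquitin ligase of the Notch pathway and itself a Notch target in B cells. It was at 529.8, 779, 625.4, 163, 128 and 216 in MM, at 1744, 1598, 752, 1058 and 1247 in Eμ-xbp-1s B cells, and at 1515, 2146, 1535, 1843 and 1577 in wild-type B cells. MM lay below every wild-type array, while its array 2 reached just above Eμ-xbp-1s array 3. Dtx1 fell in MM relative to wild-type B cells (log2 fold change −2.40, standard error 0.45, adjusted p = 0.00315 from limma), which missed the threshold without wild-type array 2 (adjusted p = 0.0113) or 4 (adjusted p = 0.0105). The changes of −1.92 in MM relative to Eμ-xbp-1s B cells (0.47, adjusted p = 0.0234) and of −0.48 in Eμ-xbp-1s against wild-type B cells (0.22, adjusted p = 0.247) did not pass (limma). Within MM the order of the arrays differed between the pair: arrays 4 and 5 were the highest for Notch2 and the lowest for Dtx1. A second probe set of Dtx1 lay at or under 54.2 throughout and was not tested.

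Across the 9 genes, all of which passed the filter on low values, 8 were called lower in MM than in wild-type B cells, where 4.76% of the 11079 genes tested were called lower. S1pr3 was the exception. In MM relative to Eμ-xbp-1s B cells 5 were called lower, with 1.67% of 11241 genes, and in Eμ-xbp-1s against wild-type B cells 1 was called lower (Cd1d1), with 0.192% of 10436 genes. With arrays paired by number, a pairing that no source states, S1pr3 was called lower as well, for a count of 2. The 5 genes called in MM relative to Eμ-xbp-1s B cells and Cd1d1 in Eμ-xbp-1s B cells were known to be low beforehand, in the same comparison or in one that shares its arrays, so nothing is read from those counts. The same 5 genes are among the 8. The other 3 of the 8 are S1pr1, Notch2 and Dtx1. None of the 9 was called higher, where 4.66%, 1.49% and 3.28% of all genes tested were called higher in these comparisons, taken in the same order. Groups did not overlap, with the first-named lower, for 8 genes in MM against wild-type B cells (8.77% of all genes), 6 in MM relative to Eμ-xbp-1s B cells (4.15%) and 3 in Eμ-xbp-1s against wild-type B cells (2.3%). The median log2 fold change of the 9 was −2.84, −2.01 and −0.81 in these comparisons, beside 0.01, 0.01 and −0.02 over all genes tested. The comparisons share arrays, so they are not independent of one another. With each array scaled to a common median, the median change over all probe sets in MM against wild-type B cells was −0.13, against −0.03 as deposited, and the calls over all probe sets were 697 higher and 2048 lower, against 864 and 1236. In MM against Eμ-xbp-1s B cells they were 242 and 760, against 285 and 423. Each of the 9 genes kept its sign and its call under that scaling. Counted by probe set, 11 of 15 tested were called lower in MM than in wild-type B cells (5.65% of all probe sets). In MM relative to Eμ-xbp-1s B cells 7 of 15 were called lower (1.91%), and in Eμ-xbp-1s against wild-type B cells 2 of 14 (0.481%). All 7 belong to the 5 genes known to be low beforehand. These 5 genes also enter the other counts by probe set, the counts of groups that did not overlap and the medians. Nothing is therefore read from those values about the set as a whole.

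MM arrays 4 to 6 stood apart from arrays 1 to 3, and array 6 from arrays 4 and 5 as well. The comparisons were repeated without arrays 4 to 6, a choice made after seeing the data. Against wild-type B cells the log2 fold changes were then −4.73 for Cr2, −3.70 for Fcer2a, −3.86 for Fcrla and −2.91 for Cd1d1. They were −1.76 for S1pr1 (adjusted p = 0.000106), −2.16 for Notch2 (adjusted p = 8.19e-06) and −1.42 for Dtx1 (adjusted p = 0.000127, limma). Against Eμ-xbp-1s B cells they were −3.92 for Cr2, −2.75 for Fcer2a, −2.81 for Fcrla and −1.94 for Cd1d1. Notch2 then passed the test there (−1.94, adjusted p = 0.000312), while S1pr1 (−1.0, adjusted p = 0.114) and Dtx1 (−0.94, adjusted p = 0.0474) did not (limma).

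**Figure D3:**
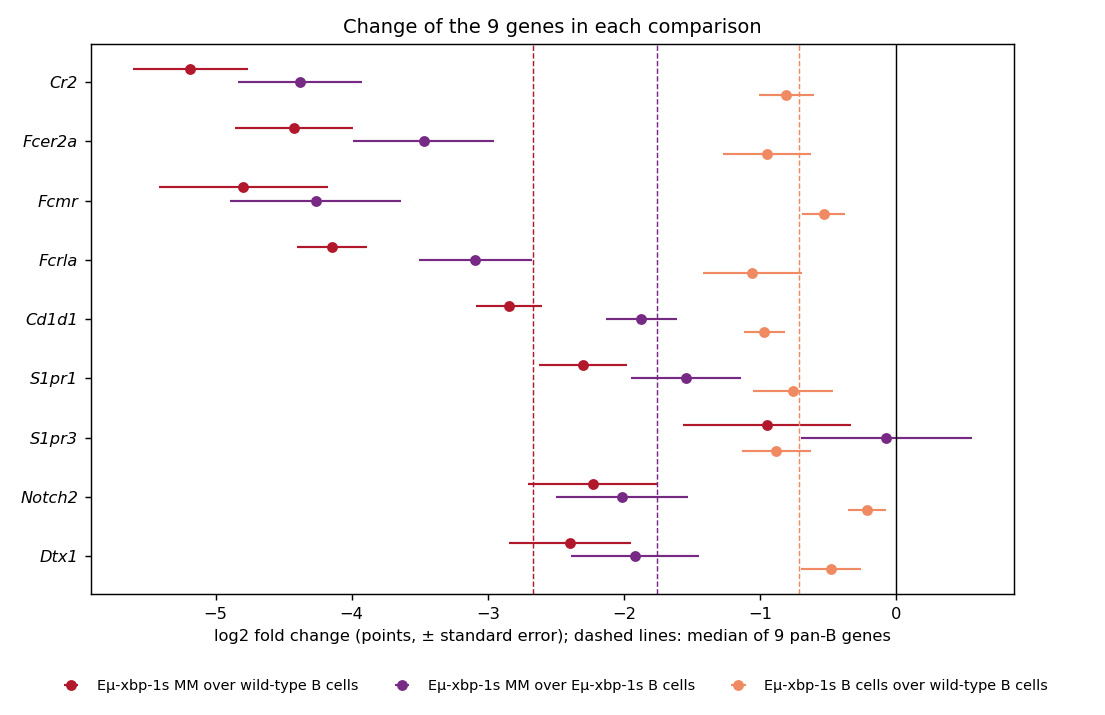
Log2 fold change of each gene (brightest probe set, values under 50 set to 50) in each comparison, with standard errors as bars and the median of 9 pan-B genes in the same comparison as a dashed line. Cr2, Fcer2a, Fcmr, Fcrla and Cd1d1 lie to the left of the pan-B median in both comparisons of MM, and S1pr1 and S1pr3 to the right of it. Notch2 and Dtx1 lie to the right of it in MM against wild-type B cells and to the left in MM against Eμ-xbp-1s B cells.

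The differences between Eμ-xbp-1s and wild-type B cells were also taken within arrays 3 to 5 and within arrays 1 and 2, a split made after seeing how alike the arrays were. On arrays 3 to 5 of both groups the log2 fold change was −1.11 for Cr2, −1.46 for Fcer2a, −0.74 for Fcmr, −1.55 for Fcrla, −1.28 for S1pr1 and −0.72 for Dtx1. On arrays 1 and 2 it was −0.36 for Cr2, −0.18 for Fcer2a, −0.23 for Fcmr, −0.32 for Fcrla, 0.03 for S1pr1 and −0.11 for Dtx1. None of these passed except Cr2 on arrays 3 to 5 (adjusted p = 0.00326 from limma). Cd1d1 gave −1.08 on arrays 3 to 5 and −0.81 on arrays 1 and 2. S1pr3 gave −0.72 on arrays 3 to 5 (adjusted p = 0.0308) and −1.12 on arrays 1 and 2 (adjusted p = 0.00422), and Notch2 gave −0.23 and −0.19 (limma). The difference between the 2 sets of arrays was not tested. The summed pan-B markers of Eμ-xbp-1s arrays 1 and 2 were 30478 and 29114, above the 17906, 23344 and 25599 of arrays 3 to 5, and the summed erythroid markers were highest on array 3 (10486, against 1455 to 3056 on the other 4). Their part in these differences was not tested.

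To set the genes against the level of pan-B genes on each array, the mean log2 level of the 9 pan-B genes was subtracted from that of each gene. These pan-B genes themselves had a median log2 fold change of −2.67 in MM against wild-type B cells, −1.75 in MM relative to Eμ-xbp-1s B cells and −0.71 in Eμ-xbp-1s against wild-type B cells. Cr2, Fcmr, Fcer2a and Fcrla stayed lower in MM on this relative scale, by −2.66, −2.54, −1.75 and −1.37 relative to Eμ-xbp-1s B cells and by −2.76, −2.37, −2.0 and −1.73 against wild-type B cells. For Cr2 and Fcmr all 6 MM arrays lay below every B cell array, and for Fcer2a and Fcrla all 6 lay below every wild-type array. Some of these MM values lay under the floor: Cr2 on arrays 1, 4 and 5, Fcmr on 5 and 6, Fcer2a on 4 and Fcrla on 5. There the relative level is set by the floor and the pan-B mean alone. Cd1d1 differed by −0.42 from wild-type B cells, S1pr1 by 0.12 (exact two-sided permutation p = 0.805), Notch2 by 0.19 (p = 0.84) and Dtx1 by 0.03 (p = 0.952), all smaller than the SD of the MM arrays. For Cd1d1 and Notch2 these means join MM arrays that lay on opposite sides of the B cells. MM arrays 1, 2, 3 and 6 lay below every B cell array for both genes, and arrays 4 and 5 above every one. For Cd1d1 the first 4 were from −3.92 to −2.82, and arrays 4 and 5 at −0.58 and −0.99. The relative level of S1pr3 differed by 1.65 in MM relative to Eμ-xbp-1s B cells (exact permutation p = 0.0216, adjusted p = 0.184) and by 1.47 in MM against wild-type B cells (p = 0.0173, adjusted p = 0.184). By intensity, S1pr3 of MM arrays 1 and 2 lay above every B cell array and that of arrays 4 to 6 below every one. On arrays 4 and 5 its relative levels of −1.42 and −1.19 stand on a low pan-B mean log2, of 8.01 and 6.92. In Eμ-xbp-1s against wild-type B cells the relative differences were 0.17 for Fcmr (exact permutation p = 0.0397), 0.49 for Notch2 (p = 0.0476) and between −0.36 and 0.22 for the other genes. None of the 17 relations tested by exact permutation passed adjustment, the smallest adjusted p being 0.184, and the smallest p possible was 0.00433 with 6 against 5 arrays and 0.00794 with 5 against 5. The 17 include Cd1d1 in MM against wild-type B cells, which entered the adjustment but is given here without its p. The relative levels of the MM arrays were widely spread, from −2.84 to 2.76 for Notch2, where arrays 4 and 5, with a pan-B sum of 4682 and 2124, were the highest.

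**Figure D4:**
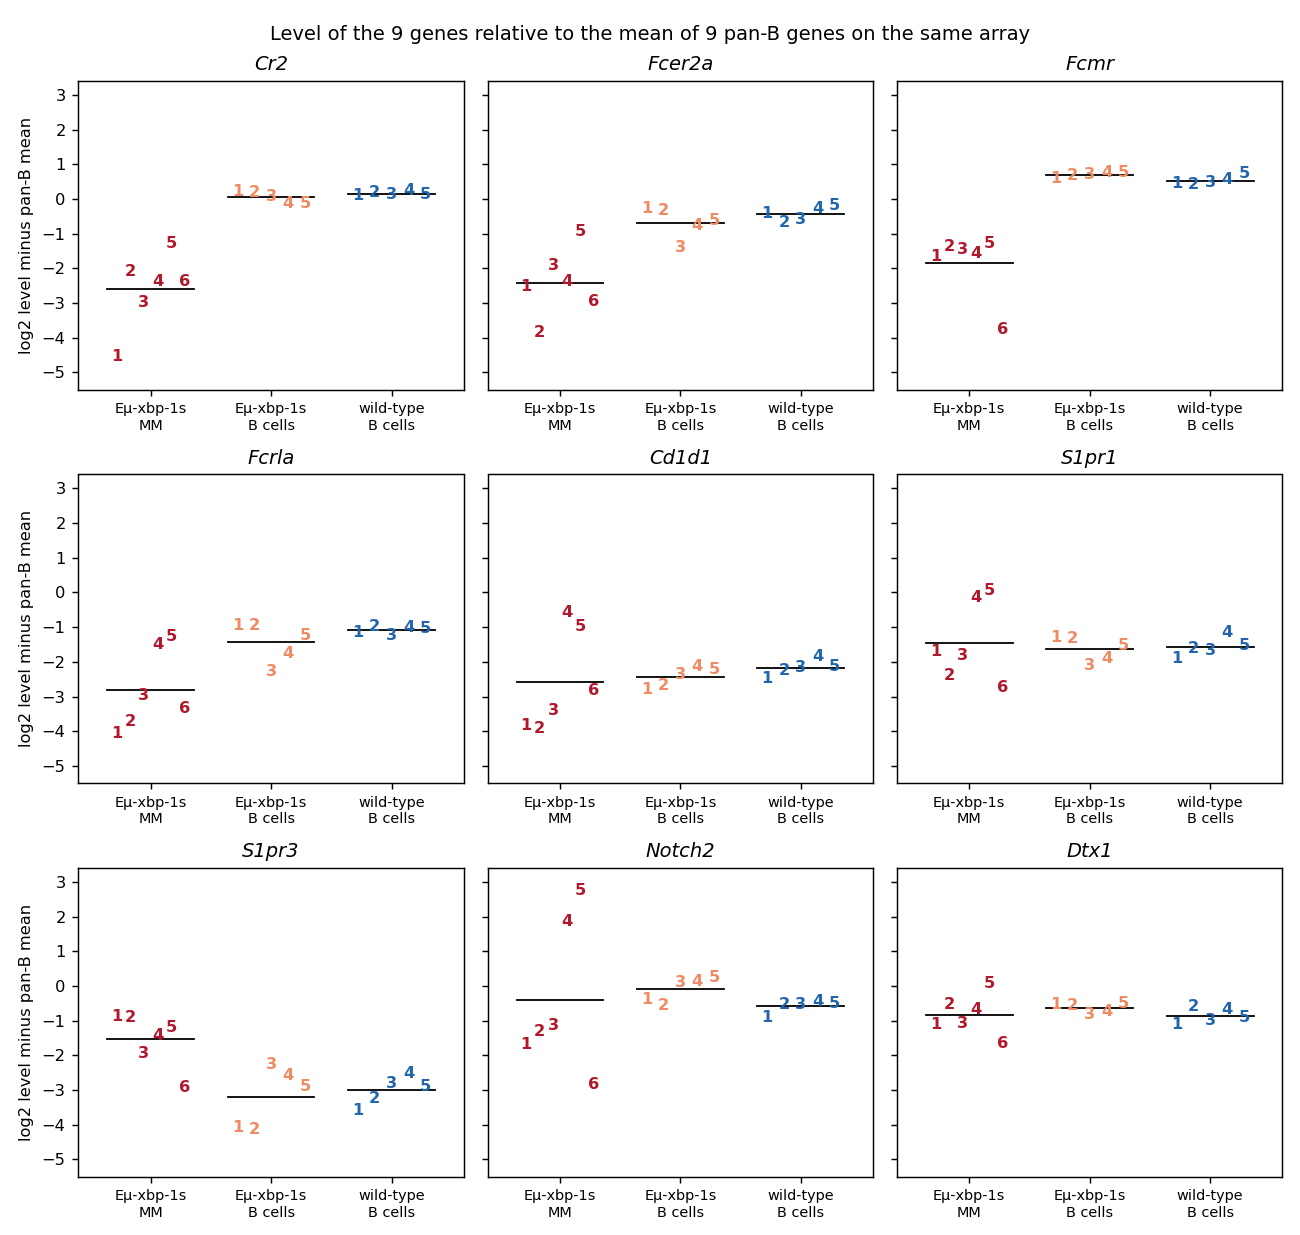
Log2 level of each gene minus the mean log2 level of 9 pan-B genes on the same array, with the array number as the symbol and the group mean as a line. Cr2 and Fcmr of all MM arrays stay below both groups of B cells (for Cr2 from −4.53 to −1.28 in MM), and Notch2 in MM spans −2.84 to 2.76.

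Other genes of the same pathways were counted by list, with the median log2 fold change given first for MM against wild-type, then for MM against Eμ-xbp-1s, then for Eμ-xbp-1s against wild-type B cells. Of 30 other Notch pathway genes, 24 or 25 were tested in each comparison (medians −0.06, −0.15 and 0.07). None passed in either comparison of MM, and only Notch1, a Notch receptor of the T cell lineage and of activated B cells, rose in Eμ-xbp-1s B cells, to 599.9 ± 187 against 239 ± 62.4 in wild-type B cells (SD, n = 5 each, log2 fold change 1.32, adjusted p = 0.00588 from limma), and 8 of 8 T cell markers tested also rose there. Their part in the value of Notch1 was not tested. Of 13 sphingosine-1-phosphate pathway genes, 12 were tested in each comparison (medians −0.04, −0.07 and −0.11). S1pr4, a receptor of lymphocytes, fell in MM relative to Eμ-xbp-1s B cells (−1.90, adjusted p = 0.00146) and to wild-type B cells (−2.0, adjusted p = 8.5e-05, limma), with 261 ± 101 (SD, n = 6) in MM against 956 ± 273 in Eμ-xbp-1s and 998 ± 72.1 in wild-type B cells (SD, n = 5 each). Klf2, a transcription factor that sustains S1pr1 expression in lymphocytes, fell in MM relative to wild-type B cells (−1.86, adjusted p = 0.00409 from limma). No gene of this list passed in Eμ-xbp-1s against wild-type B cells.

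Of 12 Fc receptor genes, 7 were tested in each comparison (medians 0.0079, −0.23 and 0.17). Fcgr3, an IgG receptor of myeloid and NK cells, rose by 2.19 on the log2 scale in Eμ-xbp-1s against wild-type B cells (adjusted p = 7.17e-05) and by 3.08 in MM against wild-type B cells (adjusted p = 3.4e-05, limma). Fcer1g, the signalling chain shared by such receptors, rose by 1.69 on the log2 scale in Eμ-xbp-1s against wild-type B cells (adjusted p = 0.00206 from limma). The summed macrophage and monocyte markers (10 of 10) lay between 9066 and 39909 in MM, 6938 and 14176 in Eμ-xbp-1s B cells, and 3132 and 5109 in wild-type B cells, and their part was not tested. Fcrl1, an Fc receptor-like protein of B cells, fell in MM against wild-type B cells (−3.14, adjusted p = 0.00343 from limma).

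Of 17 other surface and homing genes of B cell subsets, 14 were tested (medians −1.04, −1.57 and 0.00023). In MM 5 fell relative to wild-type B cells and 4 relative to Eμ-xbp-1s B cells, and none rose. Cxcr5, the chemokine receptor that brings B cells into follicles, fell in MM relative to wild-type B cells (−3.70, adjusted p = 0.00414), and its change of −2.82 relative to Eμ-xbp-1s B cells did not pass (adjusted p = 0.0380, limma). Ccr7, which directs lymphocytes to the T cell zone, fell in MM relative to wild-type B cells (−3.15, adjusted p = 5.43e-05) and to Eμ-xbp-1s B cells (−3.14, adjusted p = 0.0012, limma). Gpr183, an oxysterol receptor that places B cells within the follicle, fell in MM relative to wild-type B cells (−2.70, adjusted p = 0.00138) and to Eμ-xbp-1s B cells (−2.40, adjusted p = 0.009, limma). Cd55, which protects cells from complement, fell in MM relative to wild-type B cells (−3.16, adjusted p = 2.46e-05) and to Eμ-xbp-1s B cells (−2.23, adjusted p = 0.00144, limma), and the integrin gene Itgb7 completes the calls. In Eμ-xbp-1s against wild-type B cells Cd9, a tetraspanin of marginal zone and B-1 cells, rose by 1.51 on the log2 scale (adjusted p = 0.00112) and Cd5, carried by T cells and B-1 cells, by 2.96 (adjusted p = 9.02e-07, limma), and none fell. Cd5 is also a T cell gene, and the T cell markers given above rose in the same comparison. Neutrophil markers (5 of 6 tested) and macrophage and monocyte markers (4 of 10) were called higher there too. The part of other cells in the values of Cd9 and Cd5 was not tested.

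Across the 16 arrays Cr2, Fcer2a, Fcmr and Fcrla followed each other closely, with Pearson's r of log2 intensity from 0.93 to 0.97 between any pair. S1pr3 was the least like the rest, with r from 0.22 (Notch2) to 0.62 (Dtx1). The values of r describe these arrays, which differ in the level of pan-B genes and share their groups, and carry no p. The 3 most similar of 11065 other genes were Kmo, Samd9l and Dipk1a for Cr2 (r = 0.97 each), Gm8369, Scd1 and Bcl11a for Fcer2a (0.97 to 0.99), Ifi209, Trim34a and Smg1 for Fcmr (0.98 to 0.99), and Egr3, Dipk1a and Icosl for Fcrla (0.98 each). For Cd1d1 they were Lrrk2, Pxk and Pxdc1 (0.96 to 0.97), for S1pr1 Cnr2, Glcci1 and Ly6d (0.97 each), for Notch2 Zfp871, Ptprj and Chd2 (0.94 to 0.96), and for Dtx1 Ppdpf, Blk and H2-Oa (0.98 to 0.99). The closest genes to S1pr3 were less close: Hgh1, Snhg5 and Nubp1 (0.88 to 0.92). The mean of the 9 genes was matched best by Bcl11a and Cnr2 (r = 0.99 and 0.98).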

How the data were processed

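Affymetrix Mouse Genome 430 2.0 arrays of 16 samples were used. Each deposited value is an intensity, not log-transformed, for a probe set on an array. In dChip the authors scaled every array to the one of median overall brightness and then fitted the perfect-match minus mismatch model. The lowest value is 1 (0.764% of values). Of 45101 probe sets, 64 controls were left out, 34958 name 1 gene (34754 matched to a current symbol by gene identifier), 932 several and 9211 none. Before testing, values under 50 were raised to 50 and log2 was taken. A probe set entered a comparison if it exceeded 100 on over 20% of its arrays. The methods' further filters on SD and presence calls were not applied. Groups were compared pairwise in limma 3.58.1 (R 4.3.3, moderated linear model, only the arrays of both groups in each fit). P-values were adjusted by Benjamini-Hochberg over all probe sets tested, with a threshold of 0.01. The code was tested on simulated data. A gene is counted by its brightest probe set. Permutation tests used scipy 1.17.1 under Python 3.11.15. All 9 genes are named, with the 3 genes of most similar pattern for each, and up to 4 genes of largest change past the test per pathway list and comparison. One further list is not reported here. The members and lists were chosen with earlier results of these data known. Replicate numbers recur in each group. Same-numbered Eμ-xbp-1s and wild-type B cell arrays deviated together (r = 0.512, 0.527, 0.218, 0.176 and 0.512), each above 0.1, and were taken as pairs on that basis alone. No source ties a number to a litter or day, and for no number were the Eμ-xbp-1s and wild-type arrays each other's closest match. The main fit has no block, and paired results stand beside a gene only if its call differs. Coordinates and promoters are from RefSeq (GRCm38.p6). The number of arrays limits the precision.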

Additional observations from a re-analysis of the deposited data

Results flagged for a closer look

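Within each group, the highest and the lowest array of each of the 9 genes were compared with the rest, in 27 groups of arrays in all, of which about 1 in 20 would be picked out by chance. In 2 of them an array lay far from the others. Cd1d1 was at 255 in Eμ-xbp-1s B cell array 3, against 363 to 407 in the other 4 arrays of the group. Fcmr was at 4945 in wild-type array 5, against 4284 to 4451 in the other 4.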

How the results depend on the processing

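The number of member genes called in MM against wild-type B cells was 8 and stayed between 6 and 8 under the alternatives run, which were other floors, a pseudocount, no filter, quantile normalization, median scaling, trend and robust variance, array weights, a threshold of 0.05, a single fit, the replicate block, the mean of probe sets and each array left out. In MM against Eμ-xbp-1s B cells it was 5, and became 2 with no filter, 9 with array weights (8 lower and S1pr3 higher), 8 in a single fit of all 3 groups, 4 with the mean of probe sets (without Fcer2a) and 8 at an adjusted p under 0.05. Leaving out each array in turn gave 5 to 6. In Eμ-xbp-1s against wild-type B cells it was 1, and became 0 in the single fit and 2 with quantile normalization, array weights, the mean of probe sets or an adjusted p under 0.05. Leaving out each array gave 1 to 2, and a term for arrays 1 and 2 against 3 to 5, chosen after seeing the data, 3. The causes were not tested. The replicate block gave 2 in Eμ-xbp-1s against wild-type B cells. In MM, whose arrays share only a number with the B cell arrays (correlations from −0.284 to 0.442 with Eμ-xbp-1s B cells), the replicate block gave 2 (Cr2 and Fcmr) against Eμ-xbp-1s B cells, on the 5 numbers shared. The sign of S1pr3 was unstable. In MM against Eμ-xbp-1s B cells its log2 fold change turned to 0.11 with a floor of 100, 0.041 with a pseudocount of 50, 1.55 with array weights (adjusted p = 0.00707 from limma), 0.16 with the replicate block and 0.29 with the mean of probe sets, and ran from −0.41 to 0.31 with one array left out, above 0 without MM array 4, 5 or 6 or Eμ-xbp-1s array 3 or 4. It was 1.28 with MM arrays 4, 5 and 6 left out and 0.66 with arrays 4 and 5 left out. In MM against wild-type B cells it turned to 0.12 with array weights and 0.40 with MM arrays 4, 5 and 6 left out. S1pr1 in Eμ-xbp-1s against wild-type B cells was 0.030 on arrays 1 and 2. The floor of 50 bounds how far a gene can fall, and 3 of the 6 MM values of Cr2 lie at or under it.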
